A study of Mus musculus with 16 samples.

Results

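The response of Rest heterozygous organ of Corti cultures to FK228 was taken from 8 of the 16 RNA libraries of the series, 4 from heterozygous cultures that received the drug and 4 from heterozygous cultures that received its solvent. The libraries were chosen by their labels for genotype and compound alone. All 8 came from C57BL/6 mice of postnatal day 0 that carried 1 Rest allele without exon 4, written Rest(+/deltaExon4), so both groups share the mutation. The organ of Corti, the strip of the cochlea that holds the sensory hair cells, was cultured for 3.5 days. The FK228 group had 2 nM of the drug between days 1 and 1.5 and between days 3 and 3.5 in vitro, and the solvent group had 0.1% DMSO at the same times. The other 8 libraries came from wild-type cultures treated alike and serve here only to test whether the response differed between genotypes. Each library held RNA pooled from 6 to 8 cultures. Whether the pools came from different litters is not stated, and p-values reflect the spread among these pools only, which may be technical. Library numbers are those of the labels: 1, 2, 4 and 5 for solvent and 2, 3, 4 and 5 for FK228, and values are given in that order. Levels are CPM, the reads of a gene as a share of all gene reads of its library, in counts per 1e6, after TMM scaling. They compare libraries for 1 gene and do not rank genes, since they are not per length.

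FK228, also known as romidepsin, is a cyclic peptide that enters cells and is reduced to a thiol that binds the zinc of class I histone deacetylases. These enzymes remove acetyl groups from histone tails, and their inhibition leaves histones acetylated and changes the transcription of many genes in both directions. REST is a zinc finger protein that binds RE1 elements near neuronal genes and silences them outside neurons through the corepressors CoREST and SIN3, which carry HDAC1 and HDAC2. In the inner ear, REST is known for its inactivation by alternative splicing of exon 4 in hair cells, and the series sets a deacetylase inhibitor against a Rest allele that lacks that exon.

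The 2 groups of libraries differed in more than the drug response of single genes. Counts in genes ran from 12361027 to 14153838 with FK228 and from 14627922 to 15674930 with solvent. ERCC spike-in RNA made up 0.35% ± 0.0347 of counts with FK228 and 0.2% ± 0.028 with solvent (SD, n = 4 each), with no overlap (exact two-sided permutation test, p = 0.0286, the smallest that 4 against 4 allows, adjusted p = 0.0857 over 6 library measures). The labels do not say at which step the spike-in was added. Solvent libraries 4 and 5 had 10.4% and 12.9% of reads counted in no gene, while the other 6 libraries had 17.5% to 19.7%. This share does not tell reads of introns from reads between genes. In a principal component analysis of the 8 libraries the first component (59.6% of variance) separated FK228 from solvent, and the second (11.9%) separated solvent libraries 4 and 5 from 1 and 2. With both of these libraries left out, 3657 genes were higher and 3693 lower, against 4068 and 4229 with them. Markers of the labelled tissue were read in every library, among them Myo7a of hair cells and Sox2 of supporting cells (values further on).

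Rest itself was read in every library. Its level was 78.1, 86.9, 94.8 and 93.4 CPM with solvent and 87.3, 81.1, 79.7 and 75.8 CPM with FK228. The groups overlapped, and the log2 change of -0.12 ± 0.078 (SE) did not pass the test (edgeR quasi-likelihood, Benjamini-Hochberg adjusted p = 0.198). The counts are per gene, so they do not show exon 4. With spike-in scaling, whose shift of all genes is given next, Rest was lower with FK228 (log2 change -0.83, adjusted p = 1.71e-05).

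FK228 changed 48.4% of the genes tested. Of 17125 genes tested, 4068 were higher with FK228 (percent called 23.8) and 4229 were lower (percent called 24.7), at an adjusted p under 0.05 in edgeR's quasi-likelihood test. The median log2 change over all genes was 0.00082. A change of at least 2-fold was reached by 1361 genes upward (7.95%) and 1405 downward (8.2%), and one of at least 4-fold by 406 upward (2.37%) and 316 downward (1.85%). For 7302 genes (42.6%) the 4 FK228 libraries did not overlap the 4 solvent libraries. The median size of a called change was 0.72 on the log2 scale. TMM scaling sets each change against the bulk of all transcripts. Scaling to the spike-in instead moved the median log2 change by -0.72, so that 807 genes were higher (4.71%) and 10717 lower (62.6%). The 807 were among the genes that rose at least 2-fold with TMM scaling. Of the other TMM risers 2608 lost their call and 653 became lower, and all 4229 fallers stayed lower. Unless spike-in scaling is named, rises and falls below are relative to all transcripts. Counts of list members are to be read beside the shares of all genes, 23.8% higher and 24.7% lower (4.71% and 62.6% with spike-in scaling).

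**Figure D1:**
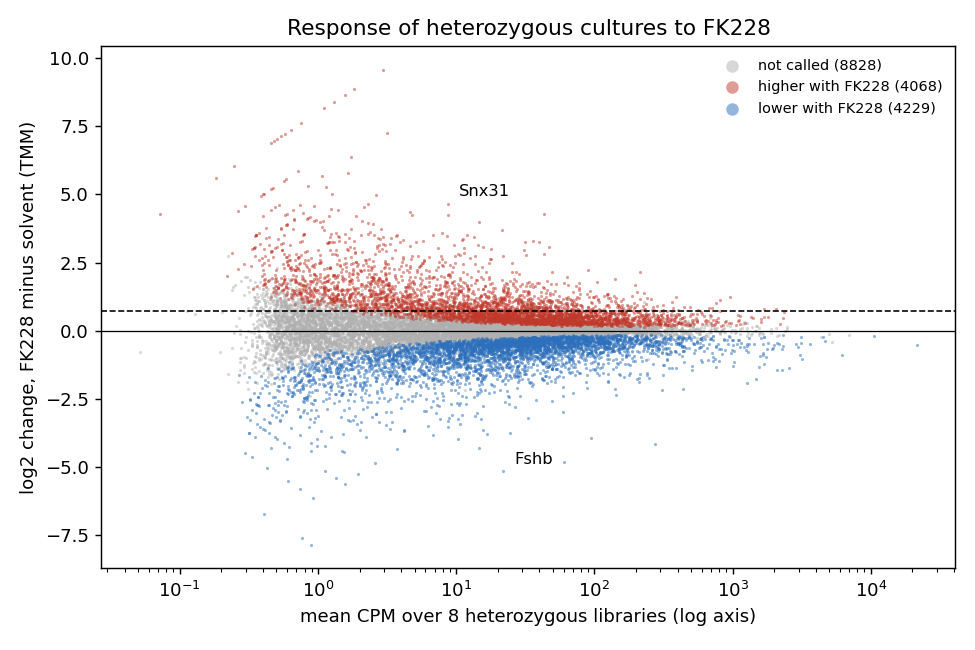
Each point is 1 of 17125 genes, placed by its mean CPM over the 8 heterozygous libraries (x, log axis) and its log2 change with FK228 (y, TMM scaling). Red points were higher, blue points lower and grey points not called at an adjusted p under 0.05. Snx31 (4.67) and Fshb (-5.16) are named, and the dashed line marks the change at which a typical gene would be level with spike-in scaling.

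**Figure D2:**
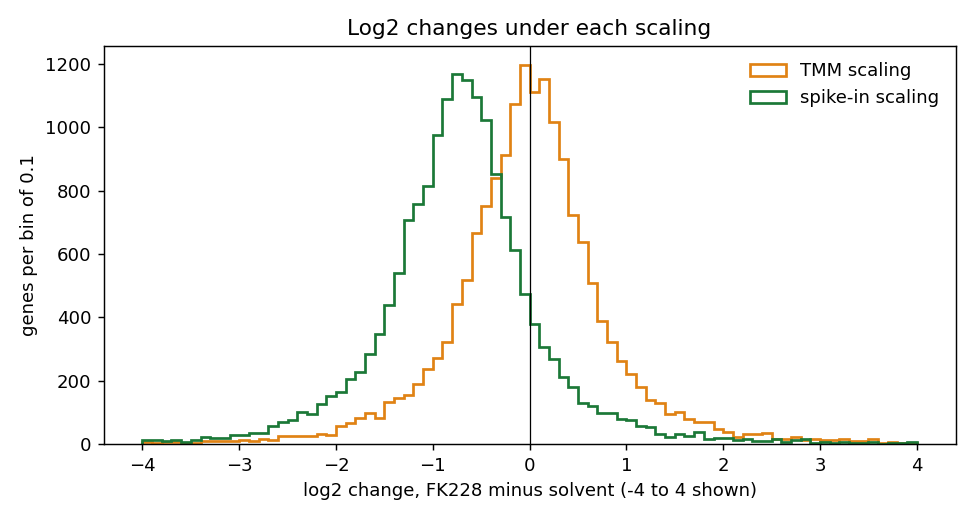
The histogram counts genes (y) by their log2 change with FK228 (x, bins of 0.1) after TMM scaling (orange) and after scaling to the spike-in (green). The TMM values centre on 0.00082 and the spike-in values on -0.72.

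The largest rises, among genes with a proper name, no overlap between groups and at least 10 CPM with FK228, began with Snx31, which encodes a sorting nexin of endosomes (chromosome 15, 36504062 to 36555573 in GRCm38). Snx31 was at 0.489, 1.24, 0.539 and 0.342 CPM with solvent and 17.1, 18.8, 14.8 and 16.9 CPM with FK228. All FK228 libraries lay more than 10 CPM above the highest solvent library, a 25.4-fold rise (log2 4.67 ± 0.28, adjusted p = 7.52e-10). Nrip3, a nuclear receptor-interacting protein gene, went from 3.36, 5.04, 5.45 and 3.22 CPM to 94.9, 87.8, 90.8 and 57.3 CPM, or 19.3-fold. Its FK228 library 5 was the lowest of the drug group and still far above every solvent library. Eaf2, which encodes a partner of the elongation factor ELL, rose 18.9-fold from 0.909, 0.917, 0.741 and 0.89 CPM to 20.04, 17.5, 13.7 and 14.7 CPM. The tight junction gene Cldn10 rose 15.9-fold, from a mean of 1.73 ± 0.524 CPM to 27.6 ± 2.69 CPM (SD, n = 4). Genes of vesicles and synapses made up several of the others: Rab26, a small GTPase of secretory granules (12.1-fold), Syngr3, which encodes synaptogyrin 3 (9.49-fold), and Snap25, the plasma membrane SNARE of exocytosis (11.3-fold). The remaining genes of the top 15 were Tmem59l (12.8-fold), Disp2 (11.5-fold), Dbpht2 (11.1-fold), the neuronal splicing regulator Celf5 (10.9-fold), Gchfr, the feedback regulator of GTP cyclohydrolase (10.3-fold), the adrenergic receptor gene Adra2b (9.94-fold), the antiviral gene Rsad2 (9.87-fold) and Stac2 (9.63-fold). Spike-in scaling moves log2 changes by about -0.72, so rises of this size remain by arithmetic. Under it the log2 rises of these 15 were 2.52 to 3.98 (edgeR, adjusted p of at most 1.76e-05).

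By the same rule, the largest fall was that of Fshb, the beta subunit of follicle-stimulating hormone (chromosome 2, 107056140 to 107059656 in GRCm38). Its level was 45.1, 48.4, 29.4 and 48.3 CPM with solvent and 1.89, 1.17, 1.28 and 0.393 CPM with FK228. Every FK228 library was below 2 CPM, a 35.7-fold fall (log2 -5.16 ± 0.34, adjusted p = 2.03e-09). Dio2, the deiodinase that makes active thyroid hormone and is needed for cochlear maturation, fell 28.6-fold from 100.2, 148, 108 and 107 CPM to 3.71, 6.07, 3.45 and 2.83 CPM. Dnm3os, a noncoding host transcript of microRNAs on the opposite strand of Dnm3 (chromosome 1, 162217623 to 162225550 in GRCm38), went from 697, 627, 304 and 444 CPM to 33.3, 26.3, 29.7 and 25.7 CPM. The counts are not stranded, so reads of the pair cannot be told apart. Timp4, an inhibitor of metalloproteinases (20.1-fold), Agtr2, an angiotensin receptor (14.2-fold), and Sfrp4, a secreted WNT antagonist (13.7-fold), also fell. The other 9 of the 15 largest falls were genes of macrophages and other phagocytes: Cybb, Lyz2, Adgre1, Cx3cr1, Fcrls, Pld4, Ms4a7, C1qc and Csf1r, with falls of 9.55-fold (Csf1r) to 15.7-fold (Cybb).

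**Figure D3:**
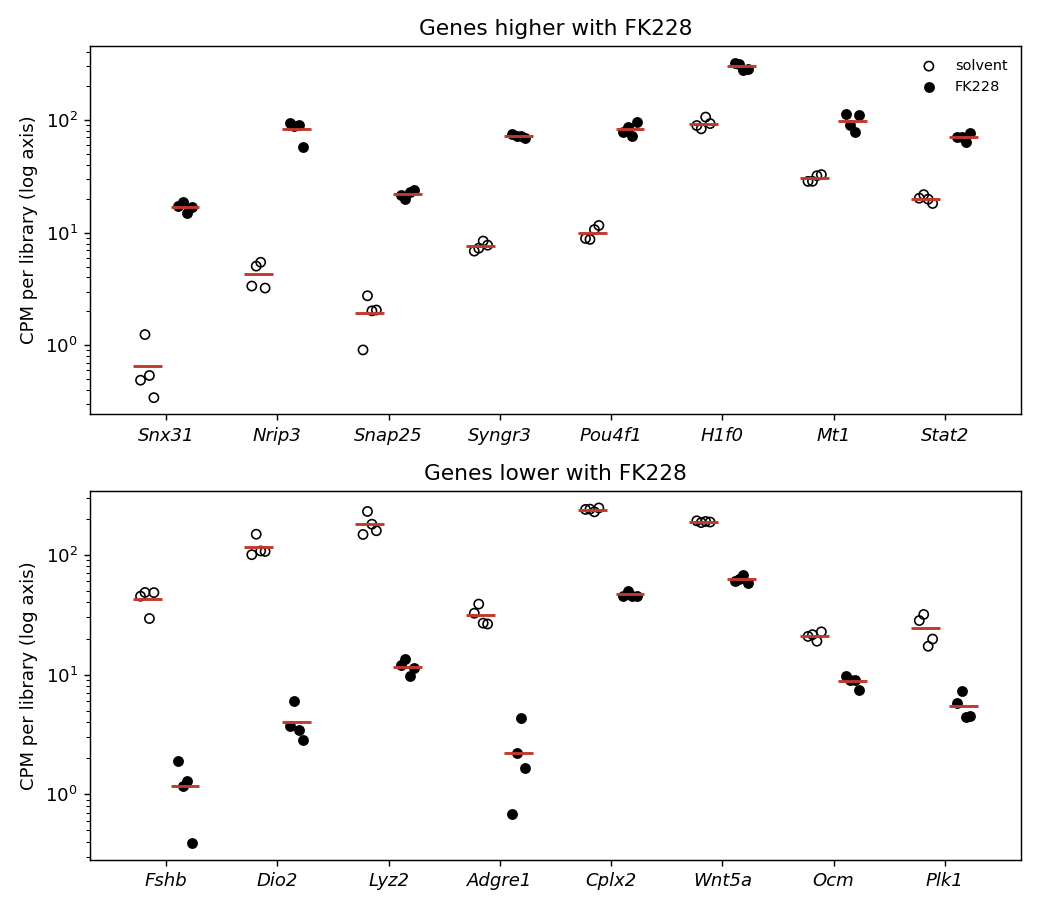
Level in each of the 8 heterozygous libraries for 16 genes, in CPM on a log axis (y), with open circles for solvent, filled circles for FK228 and a bar at each group mean. In the top row, where the genes rose, every filled circle is above every open one, and in the bottom row, where they fell, every one is below. The genes from the largest rises and falls were chosen for no overlap, and the others with their values known. The separation therefore follows from the choice of genes.

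Of the genes that changed at least 2-fold, the 8 with the highest mean CPM in each direction had these values. Ncam1, the neural cell adhesion molecule, rose from 592, 639, 504 and 554 CPM to 1300.4, 1404, 1217 and 1397 CPM, or 2.32-fold (adjusted p = 4.98e-09). Malat1, a nuclear long noncoding RNA, rose 2.04-fold from 615, 611, 355 and 427 CPM to 1009, 1056, 975 and 1051 CPM, and its solvent libraries 4 and 5 were lower than 1 and 2. Map1lc3b, the LC3B protein gene of autophagosomes, rose 2.06-fold, Aplp2, a relative of the amyloid precursor protein, 2.35-fold, and Mknk2, a kinase of the initiation factor eIF4E, 2.63-fold. Cnnm4 (2.15-fold), Tmem50b (2.24-fold) and Chchd7 (2.31-fold) completed this group. With spike-in scaling the log2 changes of the 8 were 0.28 to 0.68, and that of Malat1 lost its call (adjusted p = 0.26). Downward, Ptn, the growth factor pleiotrophin, went from 3937, 3552, 5185 and 4361 CPM to 1947, 2181, 2269.7 and 1836 CPM, or 2.07-fold lower. Otor, which encodes the secreted protein otoraplin, fell 2.56-fold, the transcription factor gene Nfia 2.76-fold, the carbonic anhydrase gene Car3 2.57-fold, the translation regulator Eif4g2 2.32-fold, the matrix gene Ccdc80 2.74-fold, collagen III (Col3a1) 3.43-fold and the retinal reductase Dhrs3 3.82-fold.

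Deacetylase genes moved in both directions. Of the class I genes, whose products the drug binds, Hdac1 and Hdac3 rose and Hdac2 and Hdac8 were not called, whereas with spike-in scaling Hdac1 and Hdac3 were not called and Hdac2 and Hdac8 were lower. Of all 11 zinc-dependent deacetylase genes of class I, class II and class IV (Hdac11), all tested, 4 rose and 4 fell, and with spike-in scaling 0 were higher and 7 lower. Hdac1 was at 92.5, 98.7, 112 and 104 CPM with solvent and 169, 238, 199 and 167 CPM with FK228. The groups did not overlap, and the rise was 1.90-fold (log2 0.93 ± 0.10, adjusted p = 5.98e-07). Hdac3, the deacetylase of the NCoR complex, rose 1.47-fold, and the class IV gene Hdac11 1.48-fold. Hdac5, of class II, rose 1.26-fold with overlapping groups (adjusted p = 0.0414), a call that single libraries could end (adjusted p up to 0.141 with solvent 1 or 2 or FK228 2, 3 or 5 left out). Hdac2 (log2 0.053 ± 0.069, adjusted p = 0.555) and Hdac8 (log2 0.16 ± 0.16, adjusted p = 0.403), the other class I members, did not pass the test, nor did the cytoplasmic Hdac6 (log2 0.026 ± 0.085). The class II genes Hdac9 (2.34-fold), Hdac10 (1.77-fold), Hdac7 (1.56-fold) and Hdac4 (1.26-fold) fell. Acetyltransferase and bromodomain genes, which write and read the mark that deacetylases remove, fell or were not called: of 15 tested, 10 fell and 0 rose (median log2 -0.42, against 0.00082 over all genes), and all 15 were lower with spike-in scaling. Crebbp, the CBP acetyltransferase, went from 375, 363, 377 and 399 CPM to 194, 184, 209 and 206 CPM, or 1.91-fold lower. Brd9 fell 2.31-fold and Kat2b 2.09-fold. REST corepressor genes split as well: 3 of 16 rose (18.8%) and 7 fell (43.8%), against 23.8% and 24.7% of all genes. With spike-in scaling 0 rose and 13 fell. Only 1 rose without solvent 2 or without FK228 2, and 4 fell without both solvent 4 and 5. Rcor2 rose 1.91-fold, Sin3a 1.28-fold and Hmg20b 1.28-fold, the first pair with overlapping groups (Sin3a was at adjusted p up to 0.0666 without solvent 2 or FK228 2, and Hmg20b at up to 0.0874 without solvent 1, solvent 2 or FK228 2), while Ctbp2 (1.72-fold) and Rcor3 (1.46-fold) fell.

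Genes known to respond to deacetylase inhibitors in many cell types rose or were not called. Of 23 tested (24 listed), 12 rose and 0 fell (median log2 0.45), whereas with spike-in scaling 6 rose and 10 fell. H1f0, the linker histone H1.0 of resting and differentiated cells, was at 89.3, 83.5, 106 and 92.9 CPM with solvent and 323, 311, 279 and 285 CPM with FK228. The drug libraries were all above 270 CPM and the solvent libraries all below 110, a 3.22-fold rise (log2 1.69 ± 0.081, adjusted p = 6.02e-11). Txnip, the thioredoxin-interacting protein, rose 3.96-fold from 24.4, 21.02, 30.3 and 26.2 CPM to 97.4, 105, 98.8 and 103 CPM. Gls2 (glutaminase 2, 6.74-fold), Hist1h1c (5.88-fold) and Hspa2 (2.42-fold) rose too, and Cdkn1a, the cell cycle inhibitor p21, rose 1.30-fold with overlapping groups. Among 18 histone genes tested (21 listed), 10 rose and 3 fell, against 3 and 9 with spike-in scaling. The RNA was copied from an oligo dT primer, so histone transcripts without a poly(A) tail are largely missed. H3f3b, a gene of the replication-independent histone H3.3, went from 1420.2, 1388, 1645 and 1534 CPM to 2618, 2574, 2565 and 2694 CPM (1.75-fold). The centromere histone gene Cenpa (2.76-fold) and the macroH2A2 gene H2afy2 (2.62-fold) fell, as did H2afz (1.29-fold). A list of high mobility group, ANP32 and histone chaperone genes, whose products bind nucleosomes or histones, went the other way: 12 of 19 fell and 3 rose (median log2 -0.66), and with spike-in scaling 15 were lower and 0 higher. Hmgn2 fell 3.13-fold, Anp32b 2.98-fold, Hmgb1 2.36-fold and Hmga2 3.30-fold, while Hmga1 (2.16-fold), the histone chaperone gene Asf1b (1.55-fold) and Hmgn3 (1.38-fold) rose. Asf1b lost its call without solvent 4 or 5 or FK228 2 or 3 (adjusted p up to 0.0831).

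The metallothionein genes, whose products bind zinc and copper, rose together. Mt1 was at 28.5, 28.5, 31.99 and 32.7 CPM with solvent and 113, 90.2, 77.97 and 109.8 CPM with FK228, a 3.21-fold rise (log2 1.68 ± 0.12, adjusted p = 5.91e-09). Mt2 was at 2.31, 2.23, 1.48 and 1.37 CPM and 7.11, 4.55, 2.91 and 4.09 CPM, 2.52-fold higher (adjusted p = 0.0018), and Mt3 at 3.57, 2.68, 4.78 and 5.68 CPM and 11.4, 9.65, 9.93 and 11.3 CPM, 2.53-fold higher (adjusted p = 0.000214). No FK228 library overlapped a solvent library for any of the 3, as was so for 42.6% of all genes. With spike-in scaling Mt1 and Mt3 stayed higher (log2 0.98 and 0.63), and Mt2 was not called (log2 0.63, adjusted p = 0.13). The promoters of the neighbouring genes Mt1 and Mt2 are shown because metal response elements, the sites of the zinc sensor MTF1, are the known control of these genes. The windows run from 250 bases before to 50 after the RefSeq start (GRCm38.p6), at chr8:94178839-94179138 and chr8:94172368-94172667, both on the + strand. Capitals mark the core letters TGCACNC or TGCGCNC on either strand.
Mt1: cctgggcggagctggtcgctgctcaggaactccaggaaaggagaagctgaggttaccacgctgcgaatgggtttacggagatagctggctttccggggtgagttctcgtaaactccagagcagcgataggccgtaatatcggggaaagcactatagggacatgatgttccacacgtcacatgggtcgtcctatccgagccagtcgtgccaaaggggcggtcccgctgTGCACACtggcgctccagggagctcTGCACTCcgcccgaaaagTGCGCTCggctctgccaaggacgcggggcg
Mt2: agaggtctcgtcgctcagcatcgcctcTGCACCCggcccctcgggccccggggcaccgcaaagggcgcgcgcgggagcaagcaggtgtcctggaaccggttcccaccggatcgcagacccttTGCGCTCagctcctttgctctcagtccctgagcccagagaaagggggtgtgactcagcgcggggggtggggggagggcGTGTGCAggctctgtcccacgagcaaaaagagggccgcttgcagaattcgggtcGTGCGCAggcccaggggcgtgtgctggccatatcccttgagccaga
The Mt1 window held 3 matches and the Mt2 window 4. The same letters occur in 36.2% of the 11962 promoters of tested genes, so a match is common and is no evidence of a site.

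Other genes of redox defence moved both ways. In the list of metallothionein and redox genes 13 of 32 rose (40.6%) and 9 fell (28.1%), against 23.8% and 24.7% of all genes. With spike-in scaling 3 rose and 21 fell. Sephs1, a selenophosphate synthetase relative, fell 4.48-fold from 225, 233, 232 and 236 CPM to 51.6, 51.3, 53.9 and 49.7 CPM. The glutathione peroxidase genes Gpx7 (2.85-fold), Gpx1 (1.52-fold) and Gpx8 (1.37-fold) and heme oxygenase Hmox1 (1.63-fold) fell. Peroxiredoxin Prdx1 (1.62-fold) and mitochondrial superoxide dismutase Sod2 (1.59-fold) rose, and with spike-in scaling neither was called (adjusted p = 0.89 and 0.732).

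REST target genes formed one of the lists with the most rises. Of 46 tested (50 listed), 30 rose and 2 fell (median log2 1.08, against 0.00082 over all genes), and with spike-in scaling 21 rose and 6 fell. Of the tested members 7 would not have passed the filter on low counts with the solvent libraries alone, so the count is a description. Snap25, whose product pairs with syntaxin in vesicle fusion (chromosome 2, 136713453 to 136782428 in GRCm38), was at 0.909, 2.75, 2.02 and 2.05 CPM with solvent and 21.8, 19.9, 22.9 and 23.8 CPM with FK228. The FK228 values lay within 4 CPM of each other, all more than 17 CPM above the highest solvent value (log2 3.50 ± 0.28, adjusted p = 1.28e-08). Celf5 rose 10.9-fold from 2.03, 2.10, 2.49 and 2.40 CPM to 23.5, 19.9, 24.7 and 30.1 CPM. Chga, the chromogranin A of dense-core granules, was at 0.979, 2.62, 4.78 and 3.29 CPM and 20.7, 29.8, 33.6 and 20.1 CPM, an 8.91-fold rise. Mapk8ip2, a scaffold of JNK signalling in neurons (8.79-fold), Rundc3a (4.73-fold), the synaptic vesicle protein gene Syp (3.93-fold), the synapsin gene Syn1 (4.55-fold) and the RNA-binding gene Elavl3 (4.25-fold) rose. Syntaxin 1A (Stx1a, 2.05-fold) and Celf4 (2.18-fold) also rose, and with spike-in scaling Stx1a was not called (adjusted p = 0.136). Scn2a, a neuronal sodium channel (log2 -0.43 ± 0.15), and Atp2b2, the calcium pump of hair bundles (log2 -0.50 ± 0.11), fell. Scn2a had overlapping groups and was at adjusted p up to 0.0754 without solvent 1 or FK228 2 or 3.

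Synapse and exocytosis genes overlapped with that list: 20 of 35 rose and 3 fell (median log2 0.66), with 10 higher and 7 lower under spike-in scaling. On the solvent libraries alone 3 of the tested members would not have passed the filter on low counts. Syngr3 went from 6.85, 7.27, 8.42 and 7.74 CPM to 75.01, 71.7, 71.5 and 69.5 CPM. Cplx2, a complexin that clamps SNARE complexes, moved the opposite way, from 239, 240.3, 228 and 246 CPM to 45.2, 50.2, 45.6 and 45.6 CPM. The 4 solvent libraries were more than 170 CPM above the FK228 libraries, a 5.11-fold fall (log2 -2.35 ± 0.078, adjusted p = 7.66e-13). The vesicular glutamate transporter gene Slc17a6 (2.90-fold) and Sv2b (1.86-fold) also fell, while Sv2a rose 2.57-fold. Sv2b was at 3.77, 2.88, 10.3 and 8.70 CPM with solvent and 3.86, 2.83, 4.73 and 2.36 CPM with FK228, high in solvent libraries 4 and 5 only, and its call was lost without either of them or without FK228 2, 3 or 5 (adjusted p up to 0.205). The other 12 of the list were not called.

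Spiral ganglion neuron markers split by gene. Of 23 tested, 11 rose (47.8%) and 3 fell (13%), against 23.8% and 24.7% of all genes. With spike-in scaling 5 rose and 9 fell. Pou4f1, the BRN3A transcription factor of sensory neurons, was at 8.88, 8.71, 10.6 and 11.6 CPM with solvent and 79.01, 87.2, 72.4 and 96.2 CPM with FK228, an 8.41-fold rise (log2 3.07 ± 0.14, adjusted p = 2.9e-11). The dendritic microtubule gene Map2 rose 2.94-fold and Uchl1 1.85-fold. The neurotrophin receptors of these neurons fell: Ntrk2 from 18.5, 29.8, 23.03 and 24.4 CPM to 9.22, 8.34, 8.99 and 8.89 CPM (2.70-fold) and Ntrk3 from 6.99, 10.5, 8.01 and 5.62 CPM to 1.97, 2.69, 2.84 and 2.05 CPM (3.25-fold). The growth cone gene Gap43 fell 1.83-fold. The neurofilament gene Nefl and the neuronal nuclear gene Rbfox3 were not called (log2 0.33 ± 0.26 and 0.56 ± 0.27).

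Sodium and calcium channel genes rose in 15 of 29 cases and fell in 4 (median log2 0.84), with 4 and 6 under spike-in scaling. On the solvent libraries alone 3 of the 29 would not have passed the filter, so the count is a description, and 2 fell without FK228 3. Scn3b, a sodium channel beta subunit, rose 5.59-fold from 0.559, 1.51, 2.09 and 2.81 CPM to 9.91, 10.3, 8.24 and 10.7 CPM, Scn8a 2.72-fold and Scn9a 3.71-fold, all at low counts. Cacna1d, the channel of hair cell synapses, was not called (log2 0.44 ± 0.25, adjusted p = 0.154). Potassium channel genes were even, with 10 of 50 higher and 10 lower (6 and 28 with spike-in scaling), shares below the 23.8% and 24.7% of all genes. On the solvent libraries alone 6 of the 50 would not have passed the filter, and on the FK228 libraries alone 6, so these counts too are a description. Log2 changes over the list ran from -3.14 to 4.52, and among its members Kcnab2 rose 3.72-fold and Kcnk2 fell 5.71-fold.

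Hair cell genes fell more often than they rose. Of 45 tested (47 listed), 18 fell and 2 rose (median log2 -0.69), or 40% and 4.44% against 24.7% and 23.8% of all genes, and with spike-in scaling 38 were lower and 1 higher. These counts rested in part on solvent libraries 4 and 5: without them 11 fell and 5 rose, when 3693 of all genes fell and 3657 rose. With the share of reads counted in no gene as a covariate 14 fell and 8 rose. On the FK228 libraries alone 2 of the 45 would not have passed the filter on low counts. The fallers held genes of outer hair cells: Ocm, the calcium buffer oncomodulin, was at 20.8, 21.5, 18.99 and 22.7 CPM with solvent and 9.68, 9.03, 9.05 and 7.48 CPM with FK228. These groups did not overlap (2.38-fold lower, log2 -1.25 ± 0.16, adjusted p = 4.03e-06). Prestin (Slc26a5) fell 2.64-fold, and the subunits of the efferent acetylcholine receptor fell 4.34-fold (Chrna9) and 2.59-fold (Chrna10). Otof, the otoferlin of hair cell exocytosis, fell 1.78-fold from 24.7, 27.6, 32.8 and 28.9 CPM to 15.2, 15.9, 14.5 and 18.6 CPM, the transduction channel gene Tmc1 2.11-fold and the stereocilia gene Ptprq 2.38-fold. Other genes of the list were not called: Myo7a was at 6.99, 6.81, 10.1 and 5.41 CPM and 5.90, 10.1, 7.43 and 10.4 CPM (log2 0.20 ± 0.24, adjusted p = 0.509), and Pou4f3 (log2 -0.32 ± 0.16), Atoh1 (log2 -0.69 ± 0.34) and Calb1 (log2 0.12 ± 0.19) also missed the threshold. The risers were Lhfpl4 (3.11-fold) and Myo6, an unconventional myosin of the hair cell apex (1.46-fold). The groups' summed level over the list overlapped, from 928 to 1587 CPM with solvent and 1126 to 1325 CPM with FK228. These are whole cultures, where fewer cells of a type and less RNA per cell cannot be told apart.

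Supporting cell genes fell in 18 of 32 cases and rose in 2 (median log2 -0.45), with 27 and 0 under spike-in scaling. The gap junction gene Gjb6 went from 139, 106, 155 and 143 CPM to 50.3, 48.5, 53.9 and 43.9 CPM, 2.76-fold lower (adjusted p = 1.05e-05). Fst, the activin antagonist follistatin, fell 3.75-fold, the WNT-responsive receptor gene Lgr5 1.74-fold, the pillar cell receptor gene Fgfr3 1.66-fold and Gata3, a transcription factor needed for cochlear identity, 1.58-fold. Sox2, the marker of the prosensory domain, was lower by 1.68-fold (adjusted p = 0.000303), whereas Sox9 (log2 -0.089 ± 0.077) and Hes5 (log2 0.27 ± 0.30) were not called. The risers were the nuclear receptor gene Rorb (1.65-fold) and Cdh1, which encodes E-cadherin (1.28-fold), and with spike-in scaling their log2 changes were -0.0091 and -0.36. Of 13 tectorial membrane genes 5 fell (38.5%) and 1 rose (7.69%), against 24.7% and 23.8% of all genes. With spike-in scaling 12 fell and 0 rose. Col11a2 fell 2.38-fold and Otogl 1.93-fold, and Tectb, the beta-tectorin gene, was at 873, 1019, 1466 and 969 CPM and 1309, 1405, 1396 and 1309.5 CPM (adjusted p = 0.0789). Claudin and connexin genes fell in 15 of 24 cases and rose in 3 (18 and 3 with spike-in scaling), and the risers, Cldn10, Gja3 and Gjb5, stayed higher with spike-in scaling. On the solvent libraries alone 3 of the 24 would not have passed the filter on low counts, and on the FK228 libraries alone 2. With a stricter filter 2 rose, so these counts are a description.

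Macrophage genes fell without exception. All 24 tested of 25 listed were lower by at least 2-fold, against 8.2% of all genes. Their median log2 change was -3.05, against 0.00082 over all genes. None had overlapping groups, as was so for 42.6% of all genes. With spike-in scaling all 24 were lower, against 62.6% of all genes. Lyz2, the lysozyme of phagocytes (chromosome 10, 117277331 to 117282321 in GRCm38), was at 148, 229.8, 179.9 and 159 CPM with solvent and 11.9, 13.4, 9.80 and 11.3 CPM with FK228. The FK228 libraries ranged over less than 4 CPM, and the fall was 15.4-fold (log2 -3.94 ± 0.24, adjusted p = 1.04e-09). Adgre1, which encodes the F4/80 antigen, went from 32.5, 38.8, 26.9 and 26.4 CPM to 0.68, 2.21, 4.32 and 1.65 CPM. Csf1r, the receptor for the growth factor macrophages depend on, fell 9.55-fold, and the complement genes C1qa, C1qb and C1qc fell 8.16-fold, 6.97-fold and 10.1-fold. Ptprc, the leukocyte antigen CD45, fell 5.13-fold and the transcription factor gene Spi1 8.07-fold. Summed over the list, the level was 432 to 648 CPM in the solvent libraries and 58.5 to 83.98 CPM in the FK228 libraries, so the markers were reduced but present in every drug library. Of the tested members 4 would not have passed the filter on low counts with the FK228 libraries alone, so this count too is a description. What part the loss of macrophage RNA has in the changes of other genes was not tested.

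Inflammation genes were lower alongside. 10 of 18 tested (24 listed) fell and 1 rose (median log2 -1.15), with 16 and 0 under spike-in scaling. Vcam1, an adhesion molecule for leukocytes, went from 81.5, 65.2, 62.02 and 49.9 CPM to 18.1, 18.2, 19.1 and 19.2 CPM (3.47-fold lower), the chemokine gene Cxcl12 from 222, 333, 271 and 262 CPM to 97.2, 84.4, 111 and 74.4 CPM (2.97-fold lower), and Ptgs2, the inducible cyclooxygenase, fell 5.91-fold at low counts. Icam1 was the exception and rose 1.78-fold with overlapping groups (adjusted p = 0.000615), without a call under spike-in scaling.

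Interferon-stimulated and antigen presentation genes rose in 14 of 27 cases and fell in 4 (median log2 0.46), whereas with spike-in scaling 8 rose and 11 fell. Stat2, a subunit of the ISGF3 factor that transmits the interferon signal, was at 20.2, 21.7, 19.8 and 18.1 CPM with solvent and 70.5, 71.1, 64.3 and 76.4 CPM with FK228, 3.53-fold higher (log2 1.82 ± 0.14, adjusted p = 8.3e-09). Isg15, a ubiquitin-like protein gene, rose 3.90-fold from 3.01, 3.60, 2.15 and 2.26 CPM to 11.3, 8.69, 7.57 and 15.7 CPM, and Rsad2, the antiviral enzyme viperin, 9.87-fold from 1.40, 1.11, 0.808 and 0.89 CPM to 6.65, 13.03, 7.03 and 15.1 CPM. FK228 libraries 3 and 5 were the higher pair for Rsad2, and all 4 were above every solvent library. The class I antigen gene H2-D1 rose 2.28-fold, the immunoproteasome gene Psmb9 3.19-fold and the tetherin gene Bst2 2.77-fold. Ifitm1, Ifitm2 and Ifitm3, which encode membrane proteins that block virus entry, fell 3.20-fold, 1.24-fold and 2.59-fold, and Oasl2 fell 1.64-fold (adjusted p up to 0.0706 without solvent 1, solvent 2 or FK228 4), while Ifit1 and B2m were not called (log2 0.12 ± 0.31 and 0.15 ± 0.10). The promoters of Isg15 (chr4:156200769-156201068) and Rsad2 (chr12:26456403-26456702), both on the - strand, are shown because ISGF3 is known to act at interferon-stimulated response elements there. Capitals mark the core of the element, GAAA, NN and GAAA in a row, on either strand, and overlapping matches each count.
Isg15: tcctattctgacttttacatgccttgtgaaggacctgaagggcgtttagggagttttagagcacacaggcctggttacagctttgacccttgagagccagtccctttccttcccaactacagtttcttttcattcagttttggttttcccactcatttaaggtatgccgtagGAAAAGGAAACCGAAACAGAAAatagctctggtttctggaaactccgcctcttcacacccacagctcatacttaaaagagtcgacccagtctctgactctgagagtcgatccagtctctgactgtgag
Rsad2: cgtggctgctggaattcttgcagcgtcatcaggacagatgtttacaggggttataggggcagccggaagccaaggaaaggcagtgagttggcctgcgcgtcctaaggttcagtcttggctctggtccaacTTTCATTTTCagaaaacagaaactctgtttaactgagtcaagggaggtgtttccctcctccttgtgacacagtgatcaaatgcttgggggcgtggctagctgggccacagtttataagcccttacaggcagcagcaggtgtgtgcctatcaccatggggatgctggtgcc
The Isg15 window held 3 overlapping matches and the Rsad2 window 1. The core was found in 2.92% of all promoters of tested genes.

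**Figure D4:**
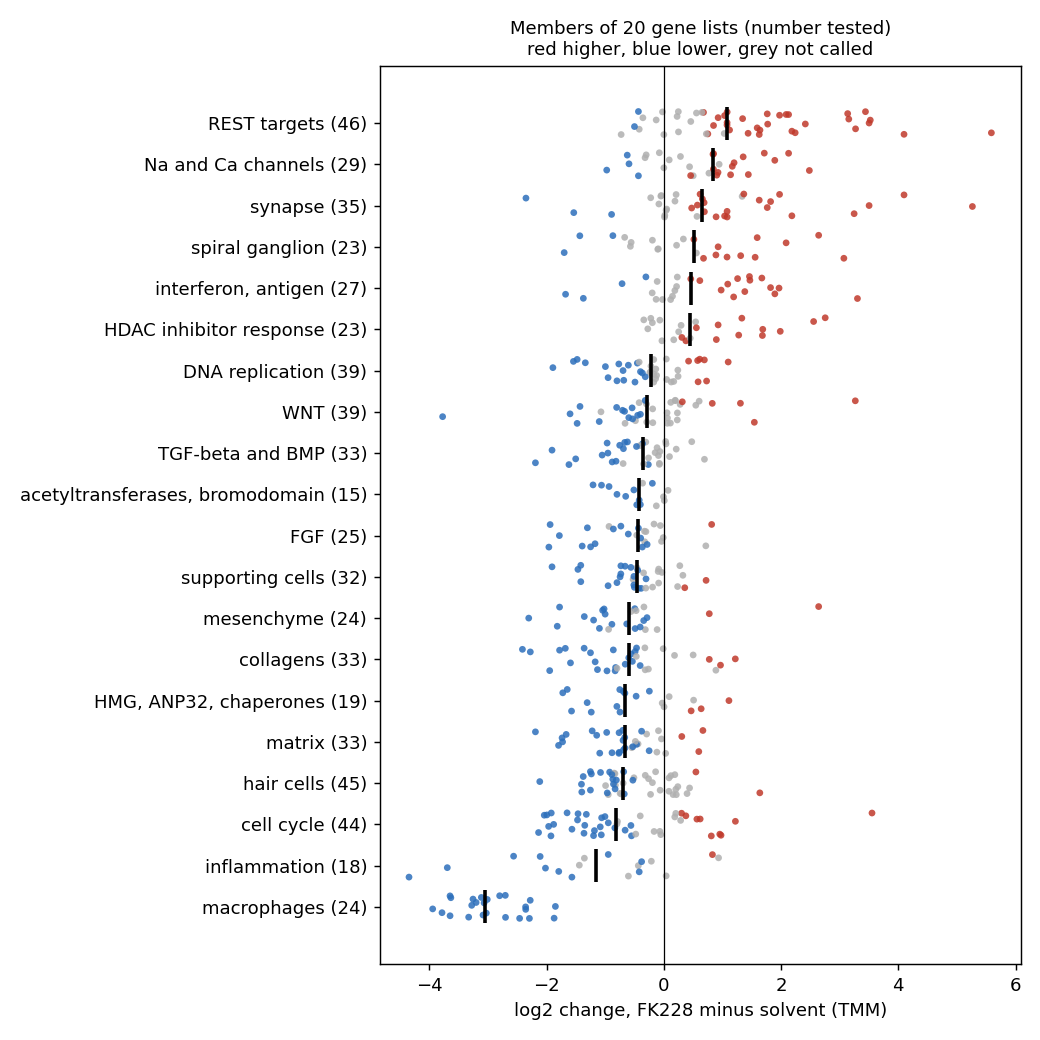
Log2 change with FK228 (x, TMM scaling) of each tested member of 20 gene lists, 1 point a gene, ordered by the list's median (black bar). Macrophage genes have the lowest median of the 20 lists, -3.05, and REST targets the highest, 1.08.

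Mesenchyme, collagen and matrix genes were lower as groups. Of 24 mesenchyme and fibroblast genes 16 fell and 2 rose, of 33 collagen genes 21 fell and 3 rose, and of 33 genes of matrix assembly and remodelling 22 fell and 3 rose, while spike-in scaling left 1, 0 and 0 risers in the 3 lists. Prrx1, a homeobox gene of mesenchyme, was at 14.5, 15.9, 22.8 and 15.8 CPM with solvent and 3.86, 3.24, 3.31 and 3.54 CPM with FK228, 4.94-fold lower (log2 -2.31 ± 0.19, adjusted p = 2.05e-08). Pou3f4, the transcription factor of otic mesenchyme, fell 2.30-fold from 140.3, 120.0, 135 and 129 CPM to 53.7, 55.5, 56.1 and 63.1 CPM. Collagen XIV (Col14a1) fell 5.32-fold, collagen VIII alpha 1 (Col8a1) 4.85-fold and the fibrillar collagen V alpha 2 (Col5a2) 3.21-fold. Col8a2, the partner chain of Col8a1, rose 2.33-fold, and Col1a1, the main chain of collagen I, rose 1.71-fold while its partner chain Col1a2 fell 1.40-fold. Col1a1 had overlapping groups and was at adjusted p up to 0.116 without solvent 1, 4 or 5 or FK228 3 or 4. With spike-in scaling Col8a2 and Col1a1 were at log2 0.50 (adjusted p = 0.05) and 0.061 (adjusted p = 0.862). Ltbp1, which tethers latent TGF-beta to the matrix, went from 453, 539.8, 502 and 531 CPM to 97.5, 116, 126 and 105 CPM, 4.57-fold lower (adjusted p = 1.02e-10). The membrane metalloproteinase gene Mmp14 fell 3.33-fold and the collagen chaperone Serpinh1 1.85-fold. The matrix genes that rose were the collagen hydroxylases P4ha2 (1.59-fold), P4ha1 (1.51-fold) and Plod1 (1.24-fold), and the mesenchyme riser besides Col1a1 was Thy1 (6.24-fold), also known from neurons. Plod1 lost its call without solvent 1 or 2 or FK228 3, 4 or 5 (adjusted p up to 0.116).

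Signalling pathways that pattern the cochlea came next. No TGF-beta or BMP gene rose, and 16 of 33 fell (median log2 -0.36; 29 with spike-in scaling). Among the ligands Tgfb3 fell 3.07-fold and Bmp5 2.84-fold, among the receptors Tgfbr2 2.07-fold, and among the signal carriers Smad3 1.84-fold. The target gene Id3 fell 1.59-fold from 249, 271, 316 and 287 CPM to 174, 166, 184 and 183 CPM. FGF pathway genes fell in 14 of 25 cases and rose in 1, Fgf11 (1.76-fold), with 23 and 0 under spike-in scaling. On the FK228 libraries alone 2 of the 25 would not have passed the filter on low counts. Spry2, a feedback inhibitor of FGF signalling, went from 913, 841, 809.9 and 775 CPM to 385, 348, 318 and 429 CPM, 2.26-fold lower, and the target genes Etv1 and Etv4 fell 1.82-fold and 2.38-fold. In the WNT pathway 14 of 39 fell (35.9%) and 5 rose (12.8%), against 24.7% and 23.8% of all genes. With spike-in scaling 28 fell and 1 rose. On the solvent libraries alone 2 of the 39 would not have passed the filter, and on the FK228 libraries alone 1. Wnt5a, a ligand of planar polarity signalling, was at 192, 186, 189.9 and 188 CPM and 60.3, 62.5, 68.2 and 58.1 CPM, 3.03-fold lower, and Nkd1, an inhibitor of Dishevelled, rose 1.77-fold. Of the Notch pathway 9 of 24 fell (37.5%) and 4 rose (16.7%), with 19 and 1 under spike-in scaling. The coactivator Maml2 fell 2.16-fold and the target gene Heyl 1.98-fold, and the inhibitor Numb rose 1.52-fold.

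Cell cycle genes fell, and several inhibitors of cyclin-dependent kinases rose. Of 44 tested, 25 fell and 9 rose (median log2 -0.82), and with spike-in scaling 35 were lower and 1 higher. Plk1, a kinase of mitosis, was at 28.2, 31.8, 17.2 and 19.8 CPM with solvent and 5.75, 7.31, 4.46 and 4.49 CPM with FK228, 4.40-fold lower (log2 -2.14 ± 0.27, adjusted p = 3.92e-06). Cdc20, an activator of the anaphase-promoting complex, fell 3.99-fold from 29.01, 31.2, 16.2 and 16.9 CPM to 7.79, 4.20, 6.96 and 4.41 CPM. For both genes solvent libraries 4 and 5 were lower than 1 and 2, and each was above every FK228 library. Cyclins B1, A2 and D1 fell 4.11-fold (Ccnb1), 3.80-fold (Ccna2) and 2.27-fold (Ccnd1), the proliferation marker Mki67 3.68-fold and Myc 2.55-fold. Inhibitors that rose included Cdkn2c (2.33-fold), Cdkn2b (1.94-fold), Cdkn2d (1.48-fold) and Cdkn1a, while Cdkn1b, the p27 inhibitor of supporting cells, fell 1.48-fold. None of these 3 Cdkn2 genes was called with spike-in scaling (log2 0.48, 0.21 and -0.15), and neither was Cdkn1a (log2 -0.34). Replication genes were less uniform, with 16 of 39 lower and 7 higher (31 and 1 with spike-in scaling). The helicase genes Mcm3 (2.53-fold) and Mcm5 (2.91-fold) and the ribonucleotide reductase gene Rrm2 (3.71-fold) fell, and Rpa1, the single-strand binding protein, rose 2.14-fold. The promoters of Plk1 (chr7:122159185-122159484, + strand) and Cdc20 (chr4:118437294-118437593, - strand) are shown because late cell cycle genes are known to be repressed through a cell cycle homology region (CHR) beside CCAAT boxes. Capitals mark TTTGAA (CHR) and CCAAT on either strand.
Plk1: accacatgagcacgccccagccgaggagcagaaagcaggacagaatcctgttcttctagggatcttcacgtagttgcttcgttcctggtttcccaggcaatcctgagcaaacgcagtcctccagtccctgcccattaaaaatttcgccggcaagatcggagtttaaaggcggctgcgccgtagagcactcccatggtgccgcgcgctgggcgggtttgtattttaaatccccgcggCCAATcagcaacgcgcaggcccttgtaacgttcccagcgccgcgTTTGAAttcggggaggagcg
Cdc20: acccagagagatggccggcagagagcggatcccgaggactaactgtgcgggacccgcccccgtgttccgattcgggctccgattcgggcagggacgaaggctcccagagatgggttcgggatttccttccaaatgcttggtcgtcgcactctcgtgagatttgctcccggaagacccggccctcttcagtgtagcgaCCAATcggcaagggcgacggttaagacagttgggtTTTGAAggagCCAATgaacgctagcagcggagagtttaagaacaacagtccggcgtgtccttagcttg
The Plk1 window held 2 matches in all and the Cdc20 window 3. Among all promoters of tested genes 11.8% held TTTGAA and 38.3% held CCAAT.

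Genes of the p53 response and of apoptosis moved in both directions. Trp53 itself fell 1.64-fold from 85.9, 82.8, 78.9 and 74.98 CPM to 49.7, 50.5, 50.6 and 45.5 CPM. Of 26 genes in this list 11 rose (42.3%) and 5 fell (19.2%), against 23.8% and 24.7% of all genes. With spike-in scaling 0 rose and 14 fell. Pmaip1, the BH3-only protein NOXA, rose 2.57-fold and Bax 1.22-fold, while Bbc3, which encodes PUMA, was not called (log2 0.35 ± 0.28). In the apoptosis list 9 of 22 rose (40.9%) and 7 fell (31.8%), with 1 and 15 under spike-in scaling. The killers Bid and Bik rose 1.85-fold and 2.91-fold, the initiator caspases went apart, Casp9 1.63-fold higher and Casp8 2.16-fold lower, and the inhibitors Xiap (1.58-fold) and Birc3 (2.82-fold) fell.

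Some smaller groups had values of their own. Glycolysis genes rose in 10 of 21 cases and fell in 0, and with spike-in scaling 2 rose and 13 fell. Hk1, the first enzyme of the pathway, went from 86.4, 112, 112 and 118 CPM to 208, 210.3, 206 and 205 CPM (1.94-fold), Pfkp rose 2.36-fold and the neuronal enolase Eno2 2.42-fold, while Ldha was not called (log2 -0.15 ± 0.16). Cholesterol synthesis genes rose in 9 of 25 cases, for example Dhcr7 1.62-fold, and with spike-in scaling 0 rose and 15 fell. Insig1, which retains the SREBP activation complex in the endoplasmic reticulum, fell 1.48-fold. Of 32 imprinted genes 9 were higher (28.1%) and 6 lower (18.8%), shares close to those of all genes (23.8% and 24.7%), with 2 and 17 under spike-in scaling. The maternally expressed RNAs Meg3 and Rian, which lie in 1 cluster, rose 2.97-fold and 3.28-fold, and H19 fell 2.17-fold. The paternally expressed gene Peg12 fell 3.74-fold from 354, 323, 305 and 345 CPM to 83.9, 89.5, 95.2 and 86.3 CPM. Of 13 tested germ line genes (26 listed), 6 rose and none fell (3 and 1 with spike-in scaling), Tdrd1 among them at 0.559, 0.131, 0.202 and 0.411 CPM and 2.27, 2.83, 1.49 and 2.68 CPM. Of these 13, 7 would not have passed the filter on the solvent libraries alone, and with a stricter filter 3 rose, so the count is a description.

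Response varied with how a gene is built and how many reads it took. Among the 112 genes with a mean of at least 1000 CPM over the 16 libraries, 18 rose and 52 fell (16.1% and 46.4%, against 23.8% and 24.7% of all genes), and none rose 2-fold. Between 1 and 10 CPM, 20.9% of 5495 genes rose and 20.1% fell. Protein-coding genes spanning more than 300 kb fell in 36.5% and rose in 13.5% of 490 cases (median log2 -0.26), and those of 30 to 100 kb in 24.1% and 27.8% of 4227. Long intergenic noncoding RNAs rose in 21.8% and fell in 13.4% of 404 cases, with 65 rising and 33 falling at least 2-fold. On the X chromosome 17.7% of 572 genes rose and 29.7% fell. These shares were not particular to it, since on chromosome 18 17.5% of 452 genes rose and 29.9% fell. The pools did not share 1 mix of sexes. Xist, the RNA of the inactive X of females, was at 10.7, 0.514, 11.7 and 0.0665 CPM with solvent (before TMM scaling). With FK228 it was at 14.4, 17.8, 0 and 12.3 CPM. What part transcript length, read depth, RNA quality or the sex of the pooled animals has in these shares was not tested.

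The counts were repeated without solvent libraries 4 and 5, the pair that stood apart. REST targets then had 31 higher and 2 lower, synapse genes 18 and 1, and interferon genes 11 and 4. Macrophage genes had 24 lower, hair cell genes 11 lower and 5 higher, and supporting cell genes 14 lower and 5 higher. Collagen genes had 18 lower, cell cycle genes 28 lower and 6 higher, and histone genes 10 higher. Notch genes had 3 lower, WNT genes 9 lower and p53 response genes 6 higher, so these last 3 counts and that of hair cell fallers were more than 1.5 times smaller. The counts of hair cell and supporting cell risers were more than 1.5 times larger, and that of synapse fallers smaller. Single libraries also moved some counts by this much. The spiral ganglion fallers numbered 6 without FK228 4, the tectorial membrane fallers 8 without solvent 2, the Notch fallers 5 without FK228 3 and the p53 response fallers 3 without solvent 2 or 5 or FK228 4 or 5. Of WNT genes 9 fell without solvent 4, and 3 rose without solvent 1 or 2 or FK228 4.

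Whether mutant and wild-type cultures responded differently was tested gene by gene as the difference of the 2 FK228 effects, which share no control libraries. The test called 4 of 17125 genes (0.0234%), and 995 (5.81%) had an unadjusted p under 0.05. DESeq2 called 29. Atp2a3, the SERCA3 calcium pump of the endoplasmic reticulum, was at 0.629, 0.917, 0.673 and 0.137 CPM with solvent and 6.35, 7.38, 6.01 and 7.79 CPM with FK228 in heterozygous cultures. The log2 change was 3.52 ± 0.29 there and 0.39 ± 0.21 in wild type, a difference of 3.13 ± 0.37 (edgeR, adjusted p = 0.0014). Its wild-type means were 9.76 ± 2.27 CPM with solvent and 12.8 ± 1.44 CPM with FK228 (SD, n = 4). Sncb, which encodes beta-synuclein, went from 0.14, 0.393, 0.269 and 0.274 CPM to 4.23, 3.38, 3.51 and 6.14 CPM. Its difference was 2.65 ± 0.41 (adjusted p = 0.0244), with log2 changes of 3.95 and 1.31. The wild-type means of Sncb were 1.79 ± 0.294 CPM with solvent and 4.46 ± 0.727 CPM with FK228 (SD, n = 4). Snap25 rose by log2 3.50 in heterozygous and 1.39 in wild-type cultures (difference 2.12 ± 0.35, adjusted p = 0.0429). Its wild-type means were 18.5 ± 6.90 CPM with solvent and 48.5 ± 9.38 CPM with FK228 (SD, n = 4). The heterozygous means of Snap25 were 1.93 ± 0.761 CPM and 22.1 ± 1.72 CPM, so in CPM the wild-type rise was the larger. Cplx2 fell further in heterozygous cultures, by log2 -2.35 against -1.55 (difference -0.80 ± 0.10, adjusted p = 0.00328). Next by p came Arhgap44 (difference -0.61 ± 0.10, adjusted p = 0.0508), then Raly (difference 0.98 ± 0.19) and the internexin gene Ina (difference 2.09 ± 0.40), both at an adjusted p of 0.144, and none of these passed the threshold. The others among the 5 with the smallest p in each direction were Msi1 (difference -0.46), Ccdc78 (-1.20) and Dbi (-0.42), with adjusted p of 0.229 to 0.277. With a single heterozygous library left out, Atp2a3 and Cplx2 kept their calls in all 8 cases. Sncb lost its call without solvent 1, 4 or 5 or FK228 2 (adjusted p up to 0.0756), and Snap25 kept its call only without solvent 2 (otherwise adjusted p up to 0.105). Sncb and Snap25 were also not called with voom or without both solvent libraries 4 and 5, where Atp2a3 and Cplx2 were, and with the replicate block none of the 4 was called. The difference rests on the wild-type libraries as well, and none of these was left out. Wild-type solvent library 1 had 10.8% of reads counted in no gene, and the other wild-type solvent libraries 16.2% to 16.3%. Its counts in genes were 23611571, against 17462876 to 18504982. Spike-in scaling changed the count to 4069, of which 4060 had the lower change in heterozygous cultures. This scaling moves all genes of a library together, so the 4069 are not separate differences of single genes. The spike-in made up 0.156% to 0.198% of counts in wild-type solvent libraries and 0.182% to 0.237% in wild-type FK228 libraries. In heterozygous cultures these shares were 0.165% to 0.232% and 0.312% to 0.393%. Of the genes that rose in heterozygous cultures 80.5% also rose in wild type (80.6% of the wild-type risers), and of those that fell 82.03% also fell (80.1%), while 6 genes were called in opposite directions.

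**Figure D5:**
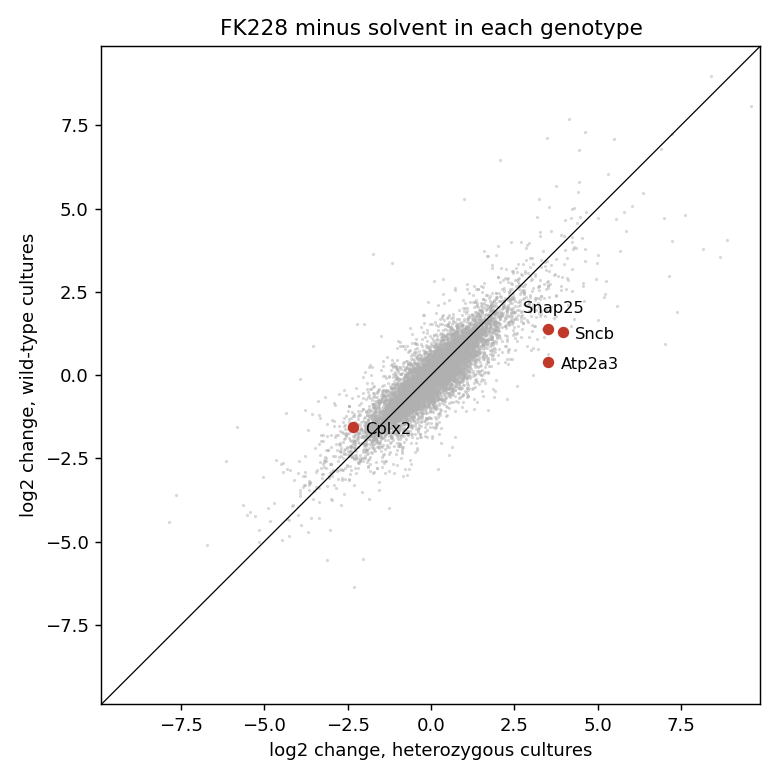
Log2 change with FK228 in heterozygous cultures (x) and in wild-type cultures (y) for 17125 genes, 1 point each, with the line of equal change. The 4 genes whose difference passed the test are marked in red and named. Atp2a3, Sncb and Snap25 had the larger log2 rise in heterozygous cultures, and Cplx2 had the larger log2 fall there.

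Across the 46 gene lists, Snap25 and Cplx2 alone among the members passed the test of the difference. REST targets rose in 30 of 46 cases in heterozygous and 26 in wild-type cultures (medians 1.08 and 0.81), and macrophage genes fell in 24 and 24 of 24 (medians -3.05 and -2.79). Glycolysis genes had 10 higher and 0 lower in heterozygous cultures and 4 higher and 7 lower in wild type, and the smallest adjusted p for a difference among them was 0.19. Genes of melanocytes and the stria vascularis had 4 higher and 1 lower in heterozygous cultures against 0 and 5 in wild type, with a smallest adjusted p of 0.552. Their 4 risers became 1 without solvent 2 or 5 or FK228 4 or 5, and 2 without solvent 4 or with the Y-linked level as a covariate.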

How the data were processed

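RNA of 16 libraries was copied from an oligo dT primer, PCR amplified and sequenced in pairs, per the labels, with no molecular identifiers named, so counting precision covers reads, not molecules. The authors deposited raw, unstranded counts per gene and library. The submitters' processing notes name STAR 2.5.2a, DESeq2 and the build GRCm38.p4, without their roles. Of 48709 gene rows, 99.3% matched the GENCODE annotation used for symbols and positions; 92 spike-in rows and the rows of reads in no gene stayed out of library sizes. Genes were filtered with filterByExpr (minimum count 10, total 15), scaled with TMM and tested with edgeR 4.0.16 (quasi-likelihood, R 4.3.3) in 1 fit of all 16 libraries and 4 groups; the contrasts were FK228 minus solvent in heterozygous cultures and its difference from wild type. p-values were Benjamini-Hochberg adjusted over all 17125 genes, with a threshold of 0.05. A fold is 2 to the power of the fitted log2 change. Alternatives were RLE factors, spike-in scaling, DESeq2 1.42.0, voom (limma 3.58.1) with quality weights, other filters, heterozygous libraries alone, a replicate block, covariates and left-out libraries. The fit was tested on simulated data.

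The genes named were those with the 15 largest changes each way (no overlap, at least 10 CPM in the higher group), the 8 with the highest CPM that changed at least 2-fold, the deacetylase genes, for each list some members (up to 6 by smallest p) and some of those against its majority, and the 5 genes each way with the smallest p for the difference between genotypes. Other list members named for a known role were chosen after their values were seen. Gene lists and members were chosen with earlier results of these data known. Promoters were found for 11962 of 17125 genes (69.9%), under the 80% needed to compare promoter content between sets of genes, so no such comparison is given. Per gene, the range of counts gives the precision; replicate libraries of each group differed by more than sampling noise. Values of some genes are not reported here.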

Additional observations from a re-analysis of the deposited data

Results flagged for a closer look

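In groups of 4 libraries the highest or lowest value was compared with the rest by Dixon's ratio, and 18 of 482 groups exceeded its 95% critical value, where chance gives about 1 in 20. In FK228 library 5, Cdkn1b stood at 227 CPM above 116 to 129 CPM in the others, and P4ha2 at 279 CPM above 258 CPM. Its share of reads counted in no gene was 19.7%, against 17.5% to 17.8%. FK228 library 4 was highest for Nefl (101 CPM against 54.2 to 59.1) and for Gpx7 (38.8 CPM). Library 3 of the same group was highest for Cplx2 (50.2 CPM) and lowest for Kat2b (4.55 CPM), and library 2 was highest for Insig1 (106 CPM) and Thy1 (13.6 CPM). In solvent library 4, Map1lc3b (262 CPM), Prrx1 (22.8 CPM) and Tmem50b (181 CPM) were highest and Eaf2 (0.741 CPM) was lowest. Solvent library 2 was highest for Dio2 (148 CPM) and Pmaip1 (10.1 CPM against 4.12 to 4.51) and lowest for Dhcr7 (16.6 CPM). Solvent library 1 was lowest for Ptprc (3.43 CPM) and solvent library 5 for Rorb (48.96 CPM).

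The FK228 effect differed between the genotypes in 4 genes, tested as an interaction in edgeR. The differences, heterozygous minus wild type on the log2 scale, were 3.13 for Atp2a3, 2.65 for Sncb, 2.12 for Snap25 and -0.80 for Cplx2. All 4 FK228 libraries of heterozygous cultures were above all 4 solvent libraries for the first 3 genes and below them for Cplx2. With voom, and without both solvent libraries 4 and 5, Sncb and Snap25 were not called, and none of the 4 was called with the replicate block.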

How the results depend on the processing

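Counts of genes higher, lower and changed at least 2-fold stayed within 1.5 times of 4068, 4229 and 2766 under RLE factors, DESeq2, voom, no filter, heterozygous libraries alone, both covariates and each left-out library. The exceptions were spike-in scaling (807, 10717 and 5828) and, for the 2-fold count, a stricter filter (1843). Without 1 library each, the ranges were 3715 to 3931 higher, 3873 to 4061 lower and 2694 to 2848 at least 2-fold. The count of genes that differed between genotypes was 4. It became 4069 with spike-in scaling, 29 with DESeq2, 2 with voom and 10 with no filter. With the share of reads counted in no gene as covariate it was 8, and without 1 heterozygous library each it was 2 to 6. Wild-type libraries were not left out. The cause was not tested. With a replicate block, which has fewer residual degrees of freedom (4 against 12), 3200 genes were higher, 3407 lower, 2521 changed at least 2-fold and 0 differed between genotypes. The numbers share no stated origin. Correlations of the deviations of same-numbered solvent and FK228 libraries were -0.0108, 0.0186 and -0.103. Those of differently numbered heterozygous libraries ran from -0.0816 to 0.125, so the correlations cannot tell whether the numbers pair the samples. Leaving out solvent libraries 4 and 5, chosen after seeing the data, gave 3657 higher, 3693 lower and 2857 at least 2-fold. Of 92 counts in 46 lists, 73 moved by over 1.5 times with spike-in scaling, 15 without this pair and 13 with the block. Among 235 named genes the log2 change reversed with spike-in scaling, which shifts all genes downward, for Arhgap44 -0.53, Asf1b -0.11, B2m -0.58, Bax -0.43, Bbc3 -0.36, Cacna1d -0.27, Calb1 -0.57, Casp9 -0.012, Cdh1 -0.36, Cdkn1a -0.34, Cdkn2d -0.15, Dhcr7 -0.023, Hdac11 -0.13, Hdac2 -0.66, Hdac3 -0.14, Hdac5 -0.37, Hdac6 -0.70, Hdac8 -0.54, Hes5 -0.41, Hmg20b -0.34, Hmgn3 -0.26, Ifit1 -0.60, Myo6 -0.15, Myo7a -0.50, Nefl -0.39, Numb -0.13, P4ha1 -0.12, P4ha2 -0.024, Plod1 -0.40, Prdx1 -0.022, Rbfox3 -0.13, Rorb -0.009, Sin3a -0.37, Sod2 -0.051 and Tectb -0.36. It also reversed with the covariate of reads counted in no gene for Hdac6 -0.022 and Ifit1 -0.055. Without solvent libraries 4 and 5 it reversed for B2m -0.056, Hdac6 -0.033, Ifit1 -0.037, Ldha 0.009 and Sv2b 0.054. Leaving out 1 library each, it changed sign for Calb1 (-0.038 to 0.33), Hdac6 (-0.032 to 0.082) and Ifit1 (-0.27 to 0.31), none of them called. A simulation used 16791 genes with these libraries' means and sizes, of which 97 were changed 2-fold and 98 were changed 4-fold. The fit recovered 65.98% of the 2-fold and 92.9% of the 4-fold changes, with 8 false calls, so some changes of these sizes were missed. Far fewer genes were changed there than the 8297 called in the data, which alters the adjusted p. The rates therefore do not give the sensitivity of this contrast.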
